A study of Mus musculus with 12 samples.

Results

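The genes described here are 7 genes of antigen presentation by major histocompatibility complex (MHC) class II: H2-Aa, H2-Ab1, H2-Eb1, Cd74, Ciita, H2-DMa and H2-DMb1. They were picked by gene name from the 15322 genes of the deposited table, and they were chosen because most of them were low in the stressed libraries of this same table. Their stress and control values are therefore given as a description, with no test. All 7 passed the filter on low values, set at 10 normalized counts in 3 or more of the 12 libraries, as did 15194 genes in all. Ciita passed it through its 3 highest control libraries and 1 stress library.

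RNA was sequenced from the L3 to L5 dorsal root ganglia, which hold the cell bodies of sensory neurons, of wild-type mouse pups at postnatal day 9. Stressed pups and their dams were kept on limited bedding between postnatal days 2 and 9, and control pups on control bedding over the same days. There were 3 libraries each of stressed males, stressed females, control males and control females, 6 per treatment. The strain, the litters and any pooling of animals are not stated in the labels, so p-values reflect only how much these samples varied, and that variation may be technical. The study asked which transcripts of the immature ganglion differ after early life stress.

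Class II molecules display peptides from taken-up material to CD4+ T cells. An alpha and a beta chain are assembled on the invariant chain, which blocks the groove and steers the complex to endosomes. There cathepsins degrade the invariant chain, and the DM molecule exchanges its last fragment for peptide. Transcription of the genes of the chains, the invariant chain and DM is driven by CIITA, a coactivator that does not bind DNA itself. It docks on the RFX, CREB and NF-Y proteins held at the X and Y boxes of class II promoters. Constitutive class II is best known from dendritic cells, B cells and some macrophages, and interferon gamma induces it in other cells.

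Of the 7 genes, 5 lie together on chromosome 17, in the MHC, within chr17:34119541-34316674 of mm10 (a span of 197 kb). In genome order these are H2-DMa (34119541 to 34139101, plus strand), H2-DMb1 (34153072 to 34160230, plus), H2-Ab1 (34257689 to 34269419, plus), H2-Aa (34282744 to 34287823, minus) and H2-Eb1 (34305867 to 34316674, plus). All 7 are annotated as protein-coding genes, and each value stands for a whole gene rather than an exon.

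Promoters are shown because these genes share a known layout, in which an X box lies a short way before a Y box. RefSeq promoter windows (build GRCm38.p6, 250 bases before to 50 bases after the start) were found for 4 of the 7 genes: H2-Aa, H2-Eb1, H2-DMb1 and H2-DMa. H2-Ab1, Cd74 and Ciita had none. Capitals mark the letters CTNGNAAC, the start of an X box, and then TGATTGG, a Y box core that holds the reverse complement of CCAAT. Windows are chr17:34287774-34288073 on the minus strand for H2-Aa, chr17:34305617-34305916 on the plus strand for H2-Eb1 and chr17:34152941-34153240 on the plus strand for H2-DMb1.
H2-Aa: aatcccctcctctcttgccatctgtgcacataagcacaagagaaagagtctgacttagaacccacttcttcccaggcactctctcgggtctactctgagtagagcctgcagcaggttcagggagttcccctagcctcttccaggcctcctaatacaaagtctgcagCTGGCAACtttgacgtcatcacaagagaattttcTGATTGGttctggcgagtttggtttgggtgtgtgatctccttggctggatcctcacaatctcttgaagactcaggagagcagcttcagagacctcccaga
H2-Eb1: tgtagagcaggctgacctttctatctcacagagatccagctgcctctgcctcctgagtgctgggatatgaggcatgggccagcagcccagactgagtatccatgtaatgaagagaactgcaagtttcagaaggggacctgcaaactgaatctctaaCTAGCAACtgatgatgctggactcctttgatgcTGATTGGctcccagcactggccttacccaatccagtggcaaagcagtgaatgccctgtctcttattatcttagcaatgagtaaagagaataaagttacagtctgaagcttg
H2-DMb1: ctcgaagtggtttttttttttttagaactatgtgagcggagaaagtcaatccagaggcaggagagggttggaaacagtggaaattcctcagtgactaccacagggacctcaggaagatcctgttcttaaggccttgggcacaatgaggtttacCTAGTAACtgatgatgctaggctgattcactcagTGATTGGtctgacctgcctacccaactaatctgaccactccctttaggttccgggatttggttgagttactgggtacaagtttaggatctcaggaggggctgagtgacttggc
The stretch between both marked runs is 26 bases in H2-Aa, 25 bases in H2-Eb1 and 26 bases in H2-DMb1. The X letters were written after these 3 windows had been looked at, so their match there is a description. Searched on both strands of 32851 promoter windows of the same length, TGATTGG was present in 7.82%, CTNGNAAC in 13.2% and both in 1.07%. The marked order on the strand of the gene, with at most 30 bases between, was present in 17 windows (0.0517%). Neither run of letters was found in the windows of H2-DMa, chr17:34122582-34122881 and chr17:34125268-34125567 on the plus strand. Both lie inside the span of that gene and not at its annotated start (34119541). Other possible starts of H2-DMa were not searched, so its lack of this layout is not shown.

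The chain genes and the invariant chain differed most between treatments. Over all genes tested, 26.2% were called in stress against control (limma, Benjamini-Hochberg adjusted p under 0.05), 13.4% lower and 12.8% higher, and the median log2 fold change was 0.01. All 6 stress libraries lay below all 6 control libraries in 5 of the 7 class II genes (H2-Aa, H2-Ab1, H2-Eb1, Cd74 and H2-DMa), and in 5.73% of all genes. The count in the class II genes follows from how they were chosen. In whole ganglia, fewer cells of a type and less RNA per cell cannot be told apart.

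H2-Aa encodes the alpha chain of the I-A molecule. Its normalized counts had a lowest value of 33.5, a median of 49.2 and a highest value of 59.5 in stress, against 177, 203 and 237 in control. The highest stress library was thus far below the lowest control library. H2-Aa averaged 47.0 ± 10.6 normalized counts in stress and 204 ± 22.1 in control (SD, n = 6 each). The difference on the log2 scale was -2.12 ± 0.15 (SE), or 4.34-fold lower.

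H2-Ab1 encodes the beta chain that pairs with H2-Aa. It had 58.8, 70.9 and 113 normalized counts (lowest, median, highest) in stress, against 165, 180 and 231 in control. The 113 was stress female replicate 1, and the other 5 stress libraries reached at most 75.4. The log2 fold change was -1.34 ± 0.15, or 2.53-fold lower, and -1.46 ± 0.13 without that library.

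H2-Eb1 encodes the beta chain of the I-E molecule. Its normalized counts were 50.2, 68.4 and 85.8 (lowest, median, highest) in stress, against 162, 195 and 233 in control. The treatments did not overlap, and the log2 fold change was -1.51 ± 0.13, or 2.85-fold lower. H2-Ea, which encodes the partner chain of I-E, was not among the genes in the table.

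Cd74 encodes the invariant chain and lies outside the MHC, on chromosome 18 (60803848 to 60812652, plus strand). It had 84.6, 123 and 176 normalized counts (lowest, median, highest) in stress, against 449, 494 and 602 in control. Every stress library was below every control library, and the log2 fold change was -2.09 ± 0.16, or 4.25-fold lower. Cd74 and H2-Aa kept nearly the same ratio of normalized counts, 2.63 ± 0.40 in stress and 2.53 ± 0.14 in control (SD, n = 6 each).

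The DM genes differed less. H2-DMa encodes the alpha chain of the peptide exchange factor and had 188, 217 and 244 normalized counts (lowest, median, highest) in stress, against 256, 306 and 315 in control. The treatments were separate but close, with a log2 fold change of -0.47 ± 0.09, or 1.39-fold lower. The ratio of H2-DMa to H2-Aa normalized counts was 4.70 ± 0.70 in stress and 1.48 ± 0.18 in control (SD, n = 6 each).

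H2-DMb1 encodes the DM beta chain. Its normalized counts were 72.2, 84.4 and 117 (lowest, median, highest) in stress, against 104, 180 and 246 in control. One control library, male replicate 3 at 104, lay within the stress range, and the log2 fold change was -0.98 ± 0.16, or 1.97-fold lower. H2-DMb2, a near copy of H2-DMb1 with which reads could be shared, had 9.69, 10.9 and 13.4 normalized counts (lowest, median, highest) in stress, against 0, 4.62 and 11.6 in control, and was not called (log2 fold change 1.29 ± 0.51, limma adjusted p = 0.0760). The sum of both genes was 102 ± 17.5 normalized counts in stress and 188 ± 46.8 in control (SD, n = 6 each).

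The estimate for Ciita, the coactivator, was smaller and less certain than those of the genes it drives. Its gene lies on chromosome 16 (10480059 to 10528418, plus strand). It was low in both treatments, with 4.83, 7.86 and 22.8 normalized counts (lowest, median, highest) in stress, against 5.58, 11.2 and 15.04 in control. The treatments overlapped over nearly the whole range, and the highest value of all was stress female replicate 1. The log2 fold change was -0.27 ± 0.37, with a 95% interval of -1.05 to 0.51, and -0.51 ± 0.37 without that library.

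**Figure D1:**
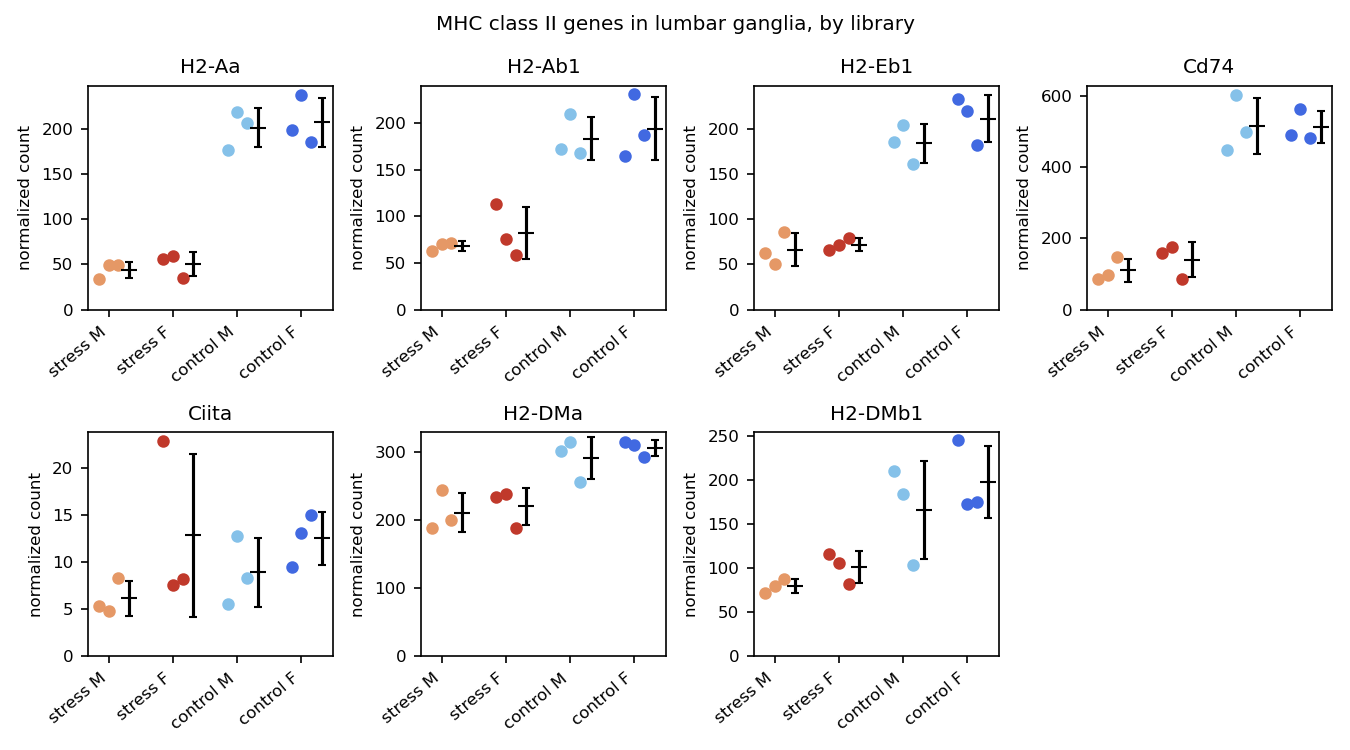
Normalized count of each class II gene in each library (1 point per library, y axis from 0, a separate scale per gene), with males (M) left of females (F) in stress and then control. The black mark and bar beside each group are its mean and SD over 3 libraries. The treatments are apart in H2-Aa, H2-Ab1, H2-Eb1, Cd74 and H2-DMa, meet in H2-DMb1 through 1 control male, and overlap in Ciita.

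The 7 genes together summed to 632 ± 104 normalized counts in stress and 1596 ± 143 in control (SD, n = 6 each). The 2 chains of I-A did not differ to the same degree: the ratio of H2-Aa to H2-Ab1 normalized counts was 0.489 to 0.790 in stress and 0.987 to 1.23 in control, with no overlap. These ratios rest on the values that chose the genes and are a description. The authors' deposited table lists log2 fold changes of -2.11 for H2-Aa, -1.34 for H2-Ab1, -1.50 for H2-Eb1, -2.05 for Cd74, -0.25 for Ciita, -0.47 for H2-DMa and -1.01 for H2-DMb1.

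Per kb of the principal transcript, the order of the genes changed with treatment. In stress, H2-DMa was highest at 130 ± 15.6 normalized counts per kb, followed by Cd74 at 88.8 ± 28.7, H2-DMb1 at 64.5 ± 12.1, H2-Ab1 at 62.1 ± 16.1, H2-Aa at 41.6 ± 9.38, H2-Eb1 at 41.4 ± 7.54 and Ciita at 1.58 ± 1.11 (SD, n = 6). In control, Cd74 was highest at 365 ± 40.6 normalized counts per kb, followed by H2-Aa at 181 ± 19.6, H2-DMa at 180 ± 13.51, H2-Ab1 at 156 ± 21.8, H2-DMb1 at 130 ± 33.6, H2-Eb1 at 118 ± 15.8 and Ciita at 1.78 ± 0.59. In stress, H2-DMb1 and H2-Ab1, and H2-Aa and H2-Eb1, did not differ beyond their spread, nor did Cd74 from H2-DMb1 and H2-Ab1. The same held in control for H2-Aa with H2-DMa and for H2-DMb1 with its neighbours H2-Ab1 and H2-Eb1. The control range of H2-Ab1 (136 to 191) also overlapped those of H2-DMa (154 to 190) and H2-Aa (157 to 210). Over all 12 libraries, the mean level per kb of Cd74 was above that of 58.1% of 14497 genes with a transcript length, that of H2-Aa above 40.8%, and that of Ciita above 0.407%.

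The sexes were compared independently of the choice of genes. The stress effect in males minus that in females was -0.13 ± 0.30 (log2, SE) for H2-Aa, -0.15 ± 0.29 for H2-Ab1, 0.05 ± 0.26 for H2-Eb1 and -0.31 ± 0.33 for Cd74. It was 0.02 ± 0.18 for H2-DMa, -0.04 ± 0.32 for H2-DMb1 and -0.32 ± 0.74 for Ciita. No such difference passed the test (limma adjusted p = 0.812 to 0.989), and of all genes tested 0% did, while 1260 had an unadjusted p under 0.05, none of them a class II gene. The intervals leave room for a difference: that of Cd74 ran from -1.003 to 0.38.

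H2-Aa averaged 44.0 ± 9.05 normalized counts in stressed males and 49.98 ± 13.1 in stressed females, against 201 ± 21.5 in control males and 207 ± 27.0 in control females (SD, n = 3 each). Cd74 averaged 110 ± 32.8 in stressed males and 140 ± 48.6 in stressed females, against 516 ± 78.4 in control males and 512 ± 45.3 in control females. Within each treatment the sexes overlapped for both genes.

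Averaged over treatments, all 7 genes had a male minus female difference below 0, from -0.07 ± 0.09 (H2-DMa) to -0.66 ± 0.37 (Ciita, limma adjusted p = 0.592). The lowest adjusted p among them was 0.556, for H2-DMb1 at -0.31 ± 0.16, and 0.0987% of all genes were called. The median difference over all genes was -8.2e-05. Among control libraries alone, which the choice of genes used only as a whole, 0.0592% of all genes differed between males and females, and no class II gene did (limma adjusted p = 1 for each). Unadjusted p-values under 0.05 were found for 1437 genes over both treatments and 336 in control, none of them a class II gene.

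**Figure D2:**
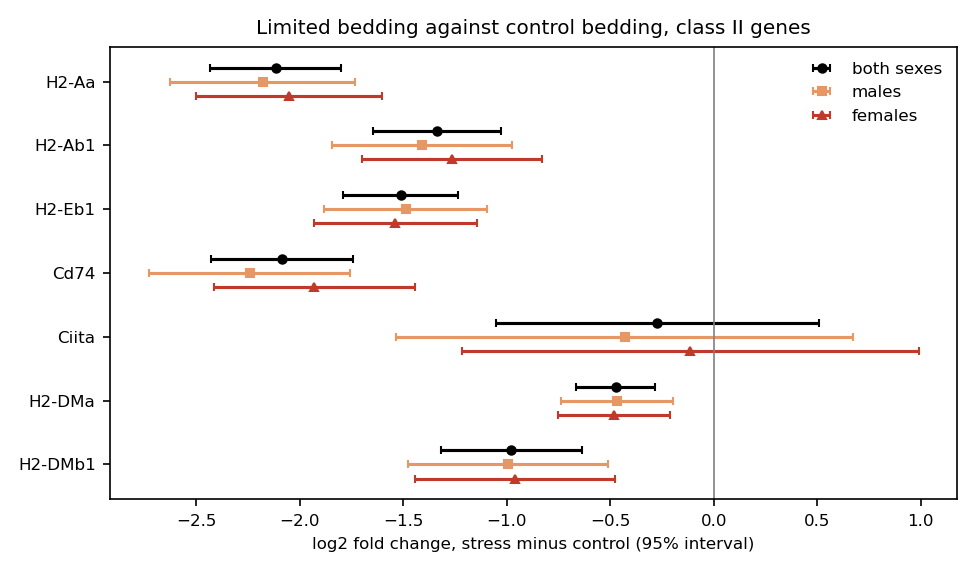
Log2 fold change of stress minus control (x axis, on the log2(normalized count + 1) scale) for each class II gene, over both sexes (black circles), in males (orange squares) and in females (red triangles), with 95% intervals. The 2 sexes' intervals overlap for all 7 genes, and only the intervals of Ciita include 0.

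Of the proteins that hold CIITA at the promoter, none approached the size of the difference in the chains. Of 7 tested genes of this complex, 2 rose and 2 fell, beside 12.8% and 13.4% of all genes, and the median log2 fold change was 0.10. Rfx5, the DNA-binding RFX subunit, fell by 0.37 ± 0.11 on the log2 scale (SE, limma adjusted p = 0.0260), with 94.5, 130 and 145 normalized counts (lowest, median, highest) in stress, against 137, 158 and 190 in control. Rfxap, which binds to it, fell by 0.25 ± 0.07 (adjusted p = 0.0094, limma). Nfyb rose by 0.36 ± 0.06 (limma adjusted p = 0.0004) and Nfya by 0.27 ± 0.07 (limma adjusted p = 0.0075), and both are subunits of NF-Y. By sex, Nfyb was at 0.60 ± 0.08 in females and 0.11 ± 0.08 in males, a difference that was not called (limma adjusted p = 0.515). Rfxank was at -0.16 ± 0.08, Creb1 at 0.12 ± 0.05 and Nfyc at 0.10 ± 0.08, none called. The call of Rfx5 was lost without control female replicate 1 (adjusted p = 0.0693, limma), control male replicate 2 (0.0689), stress female replicate 3 (0.0640) or stress male replicate 2 (0.0645).

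Of 14 genes upstream of Ciita, 12 were tested, 3 fell and none rose (median -0.10), beside 13.4% and 12.8% of all genes. Ifng, the gene of interferon gamma, and Irf4 were not among the genes in the table. Jak1, a kinase of the interferon receptors, fell by 0.20 ± 0.05 on the log2 scale (limma adjusted p = 0.0057) and the transcription factor Irf2 by 0.29 ± 0.05 (limma adjusted p = 0.0011). In Irf2 all stress libraries (497 to 575 normalized counts) lay below all control libraries (618 to 668). Prdm1, which encodes the Ciita repressor BLIMP-1, was low, at 12.97 ± 5.46 normalized counts in stress and 22.5 ± 5.002 in control (SD, n = 6 each), and fell by 0.83 ± 0.28 (limma adjusted p = 0.0392). That call was lost on leaving out any of 9 single libraries, with adjusted p = 0.0511 to 0.0949 (limma), and stood only without control female replicate 1, stress female replicate 1 or stress male replicate 2; with replicate numbers as a block the adjusted p was 0.0633.

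None of the other tested genes upstream of Ciita was called. Irf1, an interferon-induced factor that acts at the Ciita promoter, had a log2 fold change of -0.11 ± 0.17. Irf8 was at -0.27 ± 0.18, Spi1 (PU.1) at 0.06 ± 0.17, Usf1 at -0.08 ± 0.07 and Socs1, an inhibitor of the pathway, at 0.37 ± 0.18. The receptor genes Ifngr1 and Ifngr2 were at -0.18 ± 0.07 and -0.01 ± 0.04, and Jak2 at 0.04 ± 0.05.

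Of 12 tested genes of endosomal processing, 1 rose and 4 fell (median -0.04), beside 12.8% and 13.4% of all genes. The lysosomal protease Ctsd fell by 0.37 ± 0.04 on the log2 scale (limma adjusted p = 1.28e-05), at 9735 to 12124 normalized counts in stress and 13012 to 14295 in control, with no overlap. Ctsz, another cathepsin, fell by 0.28 ± 0.06 (limma adjusted p = 0.0029) and Ifi30, a thiol reductase that opens disulfides of antigens, by 0.36 ± 0.09 (adjusted p = 0.0097, limma). Cst3, a secreted cathepsin inhibitor, rose by 0.25 ± 0.07 over both sexes (limma adjusted p = 0.0107). It was at -0.0007 ± 0.09 in females and 0.50 ± 0.09 in males, a difference that was not called (limma adjusted p = 0.515). Ctsb fell by 0.12 ± 0.04 (limma adjusted p = 0.0482), a call that stood only without control male replicate 1, stress female replicate 2 or stress male replicate 3, and was lost on leaving out any other of the 12 libraries (adjusted p = 0.0672 to 0.132).

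Ctss, the main protease of the invariant chain in antigen-presenting cells, was not called at 0.32 ± 0.12 (limma adjusted p = 0.0643), with 215, 327 and 358 normalized counts (lowest, median, highest) in stress, against 180, 230 and 299 in control. The other processing genes were not called either. Ctsl, the cathepsin that does this work in the thymic cortex, was at -0.05 ± 0.05, Ctsh at -0.01 ± 0.12, Lgmn at -0.03 ± 0.06 and Sppl2a, which cleaves the remnant of the invariant chain, at -0.11 ± 0.07. The ubiquitin ligases of class II, Marchf1 and Marchf8, were at 0.25 ± 0.15 and -0.01 ± 0.04.

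Few costimulatory genes could be tested. Cd86 had a log2 fold change of 0.47 ± 0.29, Icosl of 0.07 ± 0.16 and Cd274, the inhibitory ligand PD-L1, of -0.42 ± 0.24, none of them called. Cd80 was below the filter, at 5.11 ± 3.19 normalized counts in stress and 7.65 ± 3.54 in control (SD, n = 6 each), and Cd40 and Pdcd1lg2 were not among the genes in the table. Over all lists of class II machinery, of 47 listed names 35 genes were tested, of which 3 rose and 9 fell, beside 12.8% and 13.4% of all genes. With a score of red blood cell markers as a covariate 1 rose and 4 fell, and 1 of the 4 was Irf1, called with it alone (-0.64, limma adjusted p = 0.0185). Rfx5, Rfxap, Nfya, Jak1, Irf2, Prdm1, Ctsb and Cst3 lost their calls with it (limma adjusted p = 0.0613 to 0.529).

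Genes of class I, which presents peptides made inside the cell, were not called (with the red blood cell score as a covariate Tap2 at -0.43 and Psmb10 at -0.47 were, limma adjusted p = 0.0390 and 0.0023). Of 12 tested class I and immunoproteasome genes, none passed the test, beside 26.2% of all genes, and the median log2 fold change was 0.03. H2-K1 was at 0.01 ± 0.10, H2-D1 at 0.00 ± 0.07 and B2m, their common light chain, at -0.11 ± 0.08. By sex, H2-K1 was at 0.38 ± 0.14 in females and -0.35 ± 0.14 in males. The peptide transporter Tap1 was at 1.14 ± 0.27 in females and -0.21 ± 0.27 in males. Neither difference between the sexes was called (limma adjusted p = 0.515 for each). Tap1 in stress female replicates 2 and 3 (267 and 335 normalized counts) was also above all control libraries (at most 196). Some of these genes stood furthest apart in 1 library: stress female replicate 1 had 824 normalized counts of Tap1, 175 of the immunoproteasome subunit Psmb9 and 191 of the class I coactivator Nlrc5, against at most 335, 51.6 and 46.6 in the other stress libraries. Irf1 (595) was also highest there. Of the class II genes, Ciita (22.8), H2-Ab1 (113) and H2-DMb1 (117) were highest there too, whereas H2-Aa (55.4), H2-Eb1 (65.9), Cd74 (159) and H2-DMa (234) were within the range of the other stress libraries.

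**Figure D3:**
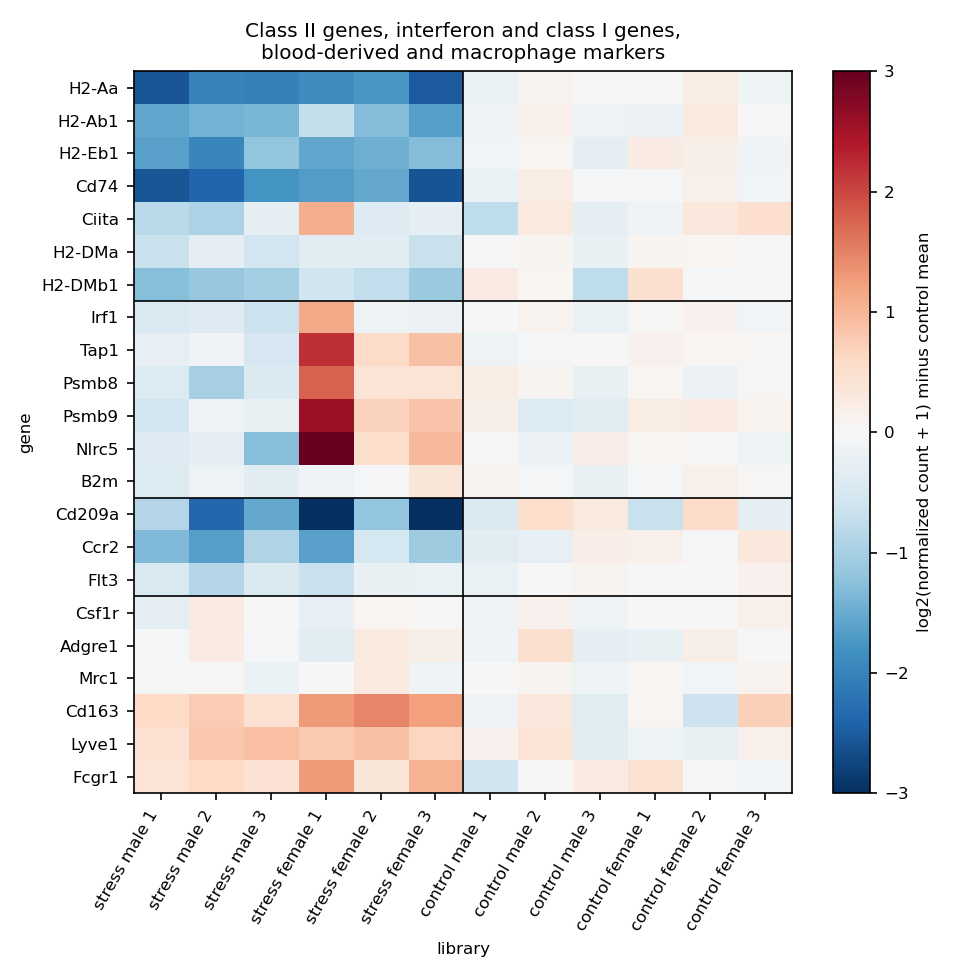
Log2(normalized count + 1) minus the mean of the 6 control libraries (colour, red higher and blue lower, colours end at -3 and 3) for each gene (rows) in each library (columns, stress left of control). Class II genes are at the top, then interferon-responsive and class I genes, then Cd209a, Ccr2 and Flt3, then macrophage markers. H2-Aa, H2-Eb1 and Cd74 are blue in all 6 stress libraries, and stress female replicate 1 is red for Irf1, Tap1, Psmb8, Psmb9 and Nlrc5.

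The genes between and beside the class II genes on chromosome 17 did not follow them as a block. The 5 tested genes between the outermost class II genes, H2-DMb2, Psmb9, Tap1, Psmb8 and Tap2, had log2 fold changes of -0.07 to 1.29 (median 0.46). None was called, beside 26.2% of all genes. Of 20 tested genes, 10 on each side, 5 fell and 1 rose (median -0.03), beside 13.4% and 12.8% of all genes. The falls were in Ring1 (-0.24 ± 0.07), H2-Ke6 (-0.32 ± 0.11), Slc39a7 (-0.23 ± 0.06), Pbx2 (-0.20 ± 0.06) and Col11a2, a cartilage collagen (-1.05 ± 0.13, limma adjusted p = 3.18e-05). The rise was in Gpsm3, a regulator of G protein signalling in blood cells, at 0.93 ± 0.08 (limma adjusted p = 6.77e-07).

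**Figure D4:**
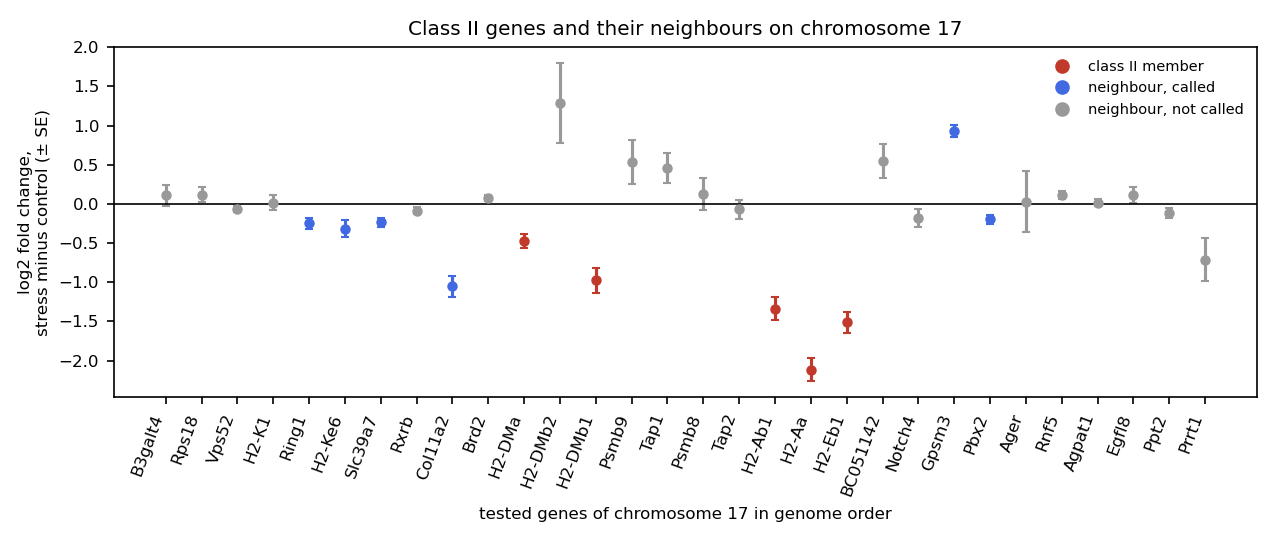
Log2 fold change of stress minus control with its SE (y axis) for tested genes of the class II region in genome order (x axis, equal steps, not distance). Class II genes are red, neighbours that were called blue and others grey. The red points lie at -0.47 to -2.12, and the 5 genes between H2-DMa and H2-Ab1 that are not red lie at -0.07 to 1.29.

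Markers of the cells that carry class II were then read in the same libraries. Of 12 dendritic cell markers, 7 were tested, while Itgax, Xcr1, Clec9a, Ccr7 and Siglech were not among the genes in the table. Cd209a, a lectin of monocyte-derived dendritic cells, had 0, 1.74 and 4.49 normalized counts (lowest, median, highest) in stress, against 5.37, 9.36 and 13.95 in control. The treatments did not overlap, but the gene is low and passed the filter through 3 control libraries alone, so these values are given with no test. Of the 5 dendritic cell markers that did not pass through 1 treatment alone, 1 fell and none rose, beside 13.4% and 12.8% of all genes. Flt3, the cytokine receptor of dendritic cell precursors, which sensory neurons are also reported to make, fell by 0.48 ± 0.10 (limma adjusted p = 0.0021), with 232, 315 and 374 normalized counts in stress and 375, 428 and 469 in control. The sum of the tested dendritic cell markers was 1485 to 1621 normalized counts in stress and 1591 to 1733 in control, nearly all of it Naaa, Flt3 and Zbtb46, which other cells also express. Naaa was at 0.02 ± 0.05 and Zbtb46 at 0.20 ± 0.08, neither called.

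Ccr2, the chemokine receptor of monocytes and cells derived from them, showed a larger difference. Its normalized counts were 20.03, 27.9 and 45.3 (lowest, median, highest) in stress, against 51.7, 67.6 and 81.1 in control. The treatments did not overlap, and Ccr2 fell by 1.18 ± 0.21 (limma adjusted p = 0.0005). Of 8 tested monocyte and neutrophil markers, it was the 1 that fell, beside 13.4% of all genes that fell and 12.8% that rose. Mpo, a granule enzyme of myeloid precursors, was at 9.00 to 28.2 normalized counts in stress and 0 to 4.42 in control. It passed the filter through 5 stress libraries alone, so these values are given with no test, and none of the other 7 markers rose. The summed level of the list was 103 to 214 normalized counts in stress and 121 to 234 in control.

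No macrophage marker fell, beside 13.4% of all genes. Of 18 tested, 3 rose (median 0.15), beside 12.8% of all genes. The summed level of the 18 was 3084 to 4027 normalized counts in stress and 2873 to 3572 in control. The defining genes Csf1r (-0.03 ± 0.09), Adgre1 (0.05 ± 0.14), Cx3cr1 (-0.04 ± 0.09) and Mrc1 (-0.01 ± 0.08) were not called. Lyve1, a hyaluronan receptor of perivascular macrophages and lymphatic vessels, rose by 0.75 ± 0.13 (limma adjusted p = 0.0004), with 165, 208 and 224 normalized counts (lowest, median, highest) in stress, against 95.7, 119 and 159 in control, with no overlap. Cd163, a scavenger receptor for haemoglobin, rose by 0.96 ± 0.21 (limma adjusted p = 0.0036), and the Fc receptor gene Fcgr1 by 0.69 ± 0.21 (limma adjusted p = 0.0213). The call of Fcgr1 was lost without control male replicate 1 (adjusted p = 0.0553, limma) or stress female replicate 1 (0.0640).

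Of 11 B cell markers 4 were tested and none was called, beside 26.2% of all genes. Ms4a1, Pax5, Ighm, Igkc, Vpreb1 and Igll1 were not among the genes in the table, and the summed level of the list was 50.7 to 89.0 normalized counts in stress and 49.2 to 74.1 in control. Cd79a was at 0.47 ± 0.20 and Cd79b at -0.94 ± 0.43. Of 7 T cell markers 2 were tested: Lck, a T cell kinase that neurons also express, rose by 0.63 ± 0.15 (limma adjusted p = 0.0060), and Cd4 was at 0.23 ± 0.23. None of 7 endothelial markers was called (median -0.07), beside 26.2% of all genes. Over the marker lists of immune cells, 39 of 58 genes were tested, 5 rose and 3 fell, beside 12.8% and 13.4% of all genes. Of the 35 that did not pass the filter through 1 treatment alone, 4 rose and 2 fell.

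**Figure D5:**
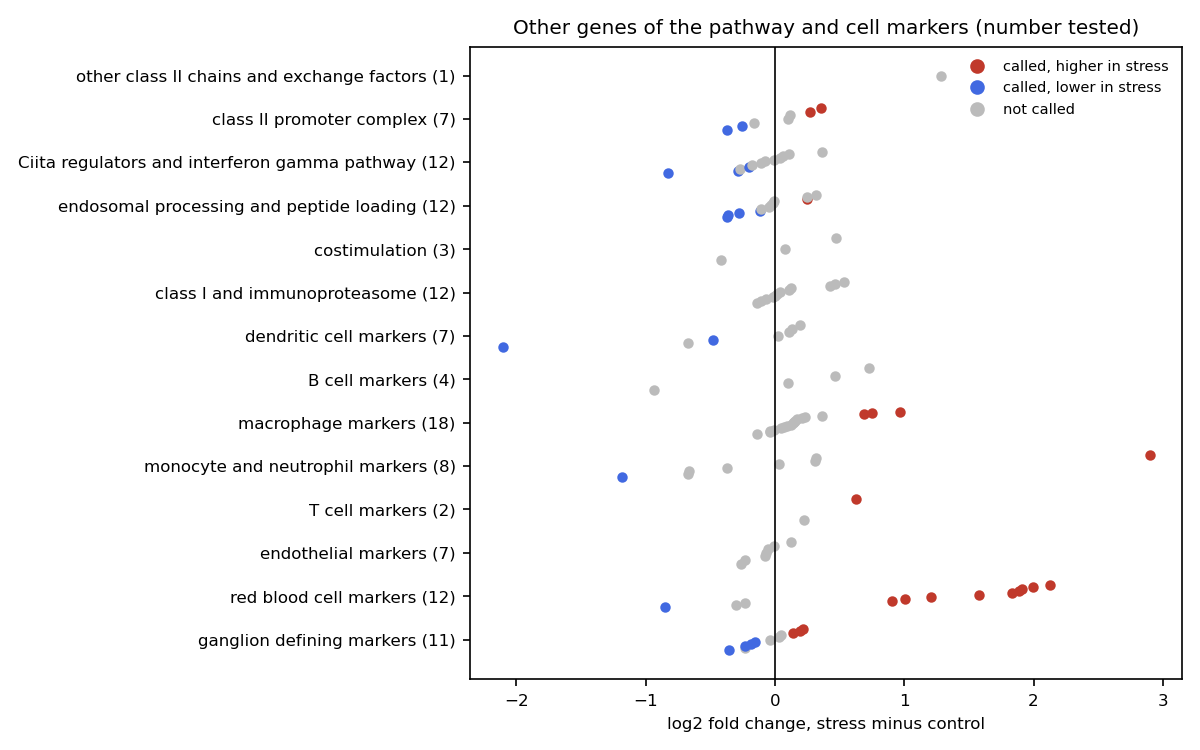
Log2 fold change of stress minus control (x axis) of each tested gene in each list of the pathway, of other antigen presentation genes and of cell markers (rows, number tested in brackets). Red points rose, blue points fell and grey points were not called; genes that passed the filter through 1 treatment alone, such as Cd209a and Mpo, are included. Macrophage and class I points centre near 0, Ccr2 and Cd209a lie at -1.18 and -2.11, and most red blood cell markers lie above 0.9.

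Some features of the libraries moved with treatment. Of 12 tested red blood cell markers, 9 rose and 1 (Tfrc) fell, beside 12.8% and 13.4% of all genes. Without 3 markers that passed the filter through stress libraries alone, 6 rose and 1 fell. Slc4a1, their anion exchanger, rose by 2.13 ± 0.31, the beta globin gene Hbb-bt by 1.21 ± 0.18 and Alas2, the first enzyme of haem synthesis, by 1.003 ± 0.19, whereas Tfrc, the transferrin receptor that many cells make, fell by 0.85 ± 0.11. Globin genes have near-identical copies between which reads can be split. The mean log2 value of all 12 markers, with the 3 that passed through stress libraries alone included, was 5.69 to 7.91 in stress and 5.27 to 5.997 in control. With that score as a covariate, the log2 fold changes were -2.25 for H2-Aa, -1.59 for H2-Ab1, -1.27 for H2-Eb1, -2.18 for Cd74, -0.55 for Ciita, -0.61 for H2-DMa and -1.16 for H2-DMb1, given as a description. The score is itself higher in stress, so this covariate also takes up part of the contrast. Ccr2 (-0.81, limma adjusted p = 0.0722), Flt3 (-0.21, limma adjusted p = 0.230), Cd163 (0.88, limma adjusted p = 0.0877), Fcgr1 (0.55, limma adjusted p = 0.266) and Lck (0.62, limma adjusted p = 0.0892) lost their calls with it. All 11 ganglion markers were detected, and 3 rose and 4 fell, beside 12.8% and 13.4% of all genes. The summed level of the 11 was 301411 to 400413 normalized counts in stress and 309049 to 406401 in control. The neuronal Tubb3 fell by 0.16 ± 0.04, and of the glial genes Sox10 fell by 0.36 ± 0.08 and Fabp7 by 0.18 ± 0.05. Tubb3 was at 44270 to 46590 normalized counts in stressed females and 54110 to 57760 in control females. In males it overlapped, at 51331 to 56701 in stress and 53656 to 56272 in control. With the red blood cell score Tubb3 (limma adjusted p = 0.190) and Fabp7 (limma adjusted p = 0.0662) lost their calls. So did Alas2 (limma adjusted p = 0.135), which is itself part of the score. Estimated depth was 16500000 to 27000000 reads in 11 libraries and uncertain in stress female replicate 2.

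Genes whose levels varied between libraries as the class II genes did were looked for after removing the 4 group means. The mean log2 value of H2-Aa, H2-Ab1, H2-Eb1 and Cd74 was compared with each other gene over 12 libraries. The 10 genes of highest Pearson r were Ptcd1 (0.912), Nnmt (0.909), Spty2d1 (0.908), Cnnm2 (0.903), Sco2 (0.886), Tmem132c (0.881), Kptn (0.864), Ccl21b (0.858), Hsf4 (0.857) and Ptch1 (0.854). None of them is in the lists above, and with Spearman's rho 6 of the 10 were the same, and with the mean of H2-Aa and Cd74 alone 3 were. Among the class II genes outside the mean, r was 0.587 for Ciita, 0.523 for H2-DMa and 0.388 for H2-DMb1. Each of the 4 that entered the mean is part of it, which raises its r. Cd74 was at 0.964, H2-Aa at 0.874, H2-Ab1 at 0.778 and H2-Eb1 at 0.321, the last at rank 2672 of the tested genes. These values are a description over libraries that share depth and processing. The 10 genes were picked as the highest of 15194, and such a pick can give a high r without any relation.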

How the data were processed

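The library kit kept strand, per the labels' protocols. The submitters' processing notes name STAR, Salmon, DESeq2 and mm10 without roles, and whether strand was used in counting is not given. For each library the deposited table holds a normalized signal (normalized count) that was not whole. It also holds the authors' log2 fold change with its error, a test score and p-values, per the file headers. In 11 libraries 61.6% to 86.6% of low values lay near multiples of 1 read, and in the other 28.9%. The share separated the treatments, with 28.9% to 66.3% in stress and 72.8% to 86.6% in control, and its part in the results was not tested. Reads could not be recovered (95% was required), so counts were not modelled.

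Groups came from the sample titles. limma 3.58.1 in R 4.3.3 was run on log2(value + 1), with a mean for each of 4 groups and a prior variance that follows expression. The filter kept 15194 genes and removed 128, and p-values were Benjamini-Hochberg adjusted over all that were kept. Fold changes on this scale understate low genes. Levels per kb used the APPRIS principal transcript in GENCODE, whose build is that of the files. The steps were tested on simulated data.

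The class II genes and all lists were chosen with earlier results of these data known. Named are all 7 genes, each list's called members up to the 5 of lowest p (for class II machinery all members), the 10 genes of most alike pattern and called neighbours; some genes that this rule names are not reported here. Alternatives covered scaling, pseudocount, filter, prior variance, sample weights, a replicate block, a red blood cell score and leaving out each library.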

Additional observations from a re-analysis of the deposited data

Results flagged for a closer look

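Values that lay far from the other 5 libraries of their treatment were looked for in 53 genes (106 groups of 6). Chance flags about 1 in 20 groups, and 12 were found, 10 of them in stress female replicate 1. That library stood far above the other stress libraries in 2 class II genes, H2-Ab1 (113 normalized counts, against 58.8 to 75.4 in the others) and Ciita (22.8, against 4.83 to 8.26). It was also the highest stress library in H2-DMb1 (117, against 72.2 to 106), by a smaller gap. It was also highest in the interferon factor Irf1 (595, against 171 to 243). Among class I genes it stood apart in Tap1 (824), Tap2 (692), Psmb8 (406), Psmb9 (175), Psmb10 (815), Nlrc5 (191) and Erap1 (563 normalized counts). The stress effect in males minus that in females was below 0 in all 12 class I genes, and 7 had an unadjusted p under 0.05, but none passed the test (limma, lowest adjusted p = 0.515). Over all genes tested, the median of this difference was -0.001, and 1260 of 15194 had an unadjusted p under 0.05. The class I genes were read in the same libraries, and those named above stood apart in the same library, so they do not count as independent.

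The other outlying values were in single libraries. Icosl was highest of the stress libraries in stress male replicate 2 (75.4 normalized counts, against 49.8 to 58.8). H2-DMa was lowest of the control libraries in control male replicate 3 (256, against 293 to 315), which also held the lowest control value of H2-DMb1.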

How the results depend on the processing

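Across 20 alternatives no called result changed direction. The 7 class II genes kept negative stress differences throughout: leaving out each library gave -2.19 to -2.001 for H2-Aa, -1.46 to -1.23 for H2-Ab1, -1.61 to -1.42 for H2-Eb1, -2.20 to -1.92 for Cd74, -0.51 to -0.14 for Ciita, -0.53 to -0.42 for H2-DMa and -1.13 to -0.88 for H2-DMb1. Of 140 such values 139 moved by less than the residual SD, which is the spread of libraries around their group means. The exception was H2-Eb1 with the red blood cell score (-1.27). The SE is smaller than that spread. With the same score H2-Ab1 (-1.59), H2-DMa (-0.61) and H2-DMb1 (-1.16) also moved by more than their SE (0.15, 0.09 and 0.16). No sex test of a class II gene passed under any alternative. With that score as a covariate, 1609 genes differed by stress instead of 3984 (3155 to 3959 without 1 library), class II machinery had 1 gene higher instead of 3 (3 to 5, the 5 without control male replicate 2) and 4 lower instead of 9 (6 to 9), and immune markers 1 higher instead of 5 (4 to 7) and 0 lower instead of 3 (2 to 4). The immune counts of 5 and 3 include Mpo and Cd209a, which passed the filter through 1 treatment alone. Without genes of that kind 4 rose and 2 fell. The score is itself higher in stress, and the cause was not tested. The male minus female count was 15 (11 to 30 without 1 library, 30 without stress female replicate 2 and 27 without stress male replicate 1), and that of the difference in stress effect 0 (0 to 1, the 1 without control female replicate 1 or 2, control male replicate 3, stress female replicate 2 or stress male replicate 1). With a replicate block it was 2. Replicate numbers did not pair the libraries: deviations of same-numbered stress and control libraries correlated at -0.02 to 0.15. Among the named genes the block ended 1 call, that of Prdm1. Of the 10 genes of most alike pattern, 3 were shared with a score of H2-Aa and Cd74 alone and 6 with Spearman's rho. Scaling moved the median of all genes to at most 0.03. Depth limits Ciita, Cd209a and H2-DMb2.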
